A study of Zea mays with 12 samples.

Results

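The genes described here are the 174 of 39498 genes in the count table of maize roots whose identifiers begin with GRMZM. In the B73 RefGen_v4 annotation that prefix is kept for genes of the mitochondrial and plastid genomes, and the 39324 genes of the nuclear chromosomes carry identifiers that begin with Zm00001d. They were chosen by identifier alone, with no measured value. The count table gives no gene names, and none of the 174 identifiers was found in the RefSeq gene table of maize, so the genes are given by identifier, mitochondrial and plastid genes could not be told apart, and the organelle origin was not checked against markers. All 174 identifiers begin with GRMZM5G, and 1228 RefSeq genes, none of them in an organelle genome, also list an older identifier of that form.

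Mitochondria and plastids are descended from bacteria and keep small genomes of their own. Those genomes encode core subunits of the respiratory and photosynthetic complexes and parts of the organelle's own expression machinery, and their mRNAs are translated by bacterial-type ribosomes inside the organelle, apart from the ribosomes of the cytosol. The plastids of roots are mostly non-green.

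Roots of B73 maize seedlings, the inbred line of the reference genome, were exposed to tunicamycin (TM, 5 µg/ml in DMSO) and harvested at 0, 6 and 12 hr. TM inhibits N-linked glycosylation of proteins in the endoplasmic reticulum (ER) and thereby causes ER stress. Each time point had 2 biological replicates, and each of the 6 root lysates gave 1 RNAseq library and 1 library of ribosome-protected fragments (RPFs, ribo-seq), 12 libraries in all. RNA was depleted of ribosomal RNA and not selected by poly(A), and the lysate and cushion buffers held both cycloheximide, which arrests cytosolic ribosomes, and chloramphenicol, which arrests organelle ribosomes. Mock-treated roots were not analysed here, so TM and time in culture cannot be told apart.

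RNAseq libraries held 2019128 to 9861654 counts and ribo-seq libraries 1667094 to 12328304 counts. Actin, the gene to which libraries were scaled for changes over time, had 59 to 445 counts in a library, so its counting error moves all genes of a library together. Counts are not divided by gene length, which is not in the table, so they do not rank genes by level. A gene's RPFs per RNA is free of length. In whole roots, fewer organelles and less RNA per organelle cannot be told apart.

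The GRMZM genes took a far smaller share of RPFs than of RNA. At 0 hr they made up 5.03% (replicate 1) and 3.70% (replicate 2) of RNAseq counts, at 6 hr 4.58% and 4.02%, and at 12 hr 4.91% and 5.77%. Of ribo-seq counts they made up 0.656% and 0.334% before TM, 0.605% and 0.321% after 6 hr, and 0.536% and 0.381% after 12 hr. The highest ribo-seq share was far below the lowest RNAseq share. Exact (Clopper-Pearson) 95% intervals, which cover counting error only, were narrow beside these gaps: 3.68 to 3.72% for the lowest RNAseq share and 0.647 to 0.665% for the highest ribo-seq share.

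**Figure D1:**
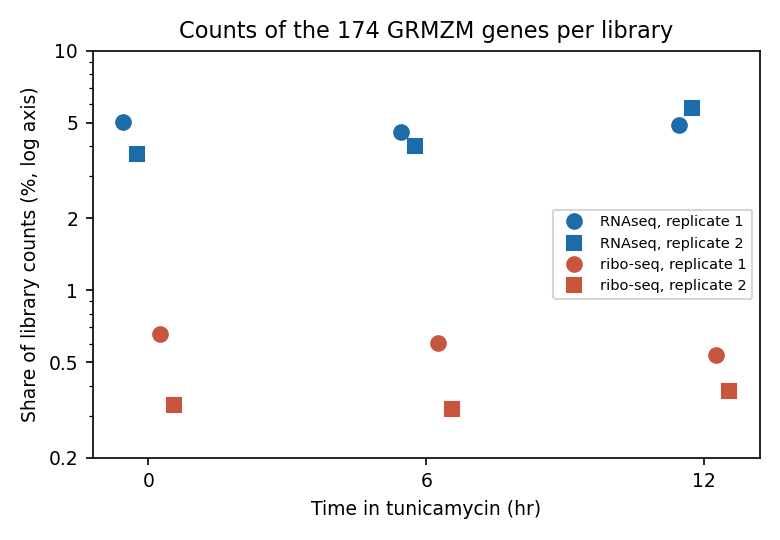
Share of each library's counts (%, log axis) in the 174 GRMZM genes against time in TM (hr), with RNAseq in blue, ribo-seq in red, replicate 1 as circles and replicate 2 as squares. The 6 RNAseq libraries lie between 3.70% and 5.77% and the 6 ribo-seq libraries between 0.321% and 0.656%.

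Within a lysate, the ratio of GRMZM to nuclear counts was lower in RPFs than in RNA by 8.02- and 11.5-fold before TM, 7.87- and 13.0-fold after 6 hr, and 9.57- and 16.0-fold after 12 hr. On the log2 scale the mean difference was -3.41 ± 0.41 (SD, n = 6 lysates), or 10.6-fold lower, with the same direction in 6 of 6 lysates (exact two-sided paired permutation test, p = 0.03125, the smallest that 6 pairs allow). In each time point the difference was larger in replicate 2. Replicate 2 also had the deeper ribo-seq library at every time point, and the part of depth in this was not tested.

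Footprints were detected for fewer of these genes than RNA. All 174 had an RNA count, 160 of them in every RNAseq library. RPFs were counted for 137 of the 174 (78.7%) and in every ribo-seq library for 84. Of the 33847 nuclear genes with an RNA count, 92.0% had an RPF count, 72.8% had RNA in every RNAseq library and 66.2% had RPFs in every ribo-seq library. A library held RPFs of 97 to 116 GRMZM genes, and the deepest ribo-seq library held no more than 102. The 37 genes without an RPF had low RNA sums over the 6 RNAseq libraries, from 11 to 376 with a median of 86, against a median of 1147.5 over all 174. In that RNA range, 37 of 65 GRMZM genes (56.9%) and 571 of 15503 nuclear genes (3.68%) had no RPF. The range was set by the GRMZM genes without RPFs, so these shares are a description. These 37 genes held only 0.284% of the RNA counts of all GRMZM genes.

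Counts were concentrated in few genes, more so for RPFs than for RNA. The 10 best counted genes held 58.0% of GRMZM RNA counts, and the 10 best counted in RPFs held 76.8% of GRMZM RPF counts, with libraries weighted equally. It took 42 genes to reach 90 percent of RNA counts and 19 to reach 90 percent of RPF counts. Of the top 10 in RNA and the top 10 in RPFs, 8 genes were the same. Across the 174 genes the rank correlation between RNA and RPF sums was 0.907, a description over genes that share the same libraries and differ in length.

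GRMZM5G862955 had the most counts in both library types. Its RNA counts were 12476 and 18825 before TM, 50795 and 17228 after 6 hr, and 36112 and 31646 after 12 hr. Its RPF counts were 2849 and 2066, 1283 and 2755, and 2035 and 5938 in the same order. It thus held on average 11.0% of GRMZM RNA counts (9.63 to 12.3% over libraries) and 12.2% of GRMZM RPF counts (10.6 to 13.3%), a steady fraction of both.

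GRMZM5G884707, second in RNA and in RPFs, had RNA counts of 6516 and 13539 before TM, 31586 and 11263 after 6 hr, and 22537 and 17942 after 12 hr. Its RPF counts were 2443 and 2539, 1084 and 3108, and 1753 and 5880. Its fraction of GRMZM counts was higher in every ribo-seq library (10.7 to 13.0%) than in any RNAseq library (6.41 to 7.04%). GRMZM5G884538, next in RNA, had nearly the same RNA counts (6773 and 13641, 29846 and 11226, 21845 and 17990) and fewer RPFs (1261 and 1625, 774 and 1850, 1225 and 3053). Its fractions overlapped between the library types, at 6.41 to 7.02% of RNA and 5.87 to 8.35% of RPFs.

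Among the 4 genes with the most RNA counts, GRMZM5G807592 had the fewest RPFs. Its RNA counts were 5398 and 11714 before TM, 29934 and 9510 after 6 hr, and 24030 and 16940 after 12 hr, which placed it at rank 4 in RNA. Its RPF counts were 50 and 121, 87 and 81, and 117 and 48, which placed it only at rank 26. It held 6.17% of GRMZM RNA counts and 0.478% of GRMZM RPF counts, and every ribo-seq fraction (0.102 to 0.862%) lay below every RNAseq fraction (5.31 to 7.05%). It was not the only well counted gene with few RPFs. GRMZM5G845024 had a mean of 14269 counts in an RNAseq library and 211.5 in a ribo-seq library.

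The remaining genes among the top 4 in RPFs were GRMZM5G884912 and GRMZM5G816772. GRMZM5G884912 had RNA counts of 4276 and 9146, 23557 and 8505, and 19716 and 15342, and RPF counts of 1943 and 1390, 677 and 2135, and 1461 and 5802, in the order of time points and replicates used above. GRMZM5G816772 had RNA counts of 3803 and 7808, 17164 and 6357, and 12913 and 10256, and RPF counts of 1772 and 1754, 1080 and 2188, and 1621 and 4298. Both took a larger fraction of GRMZM RPFs than of GRMZM RNA in every library, with means of 8.84% against 5.12% for GRMZM5G884912 and 9.35% against 3.83% for GRMZM5G816772.

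**Figure D2:**
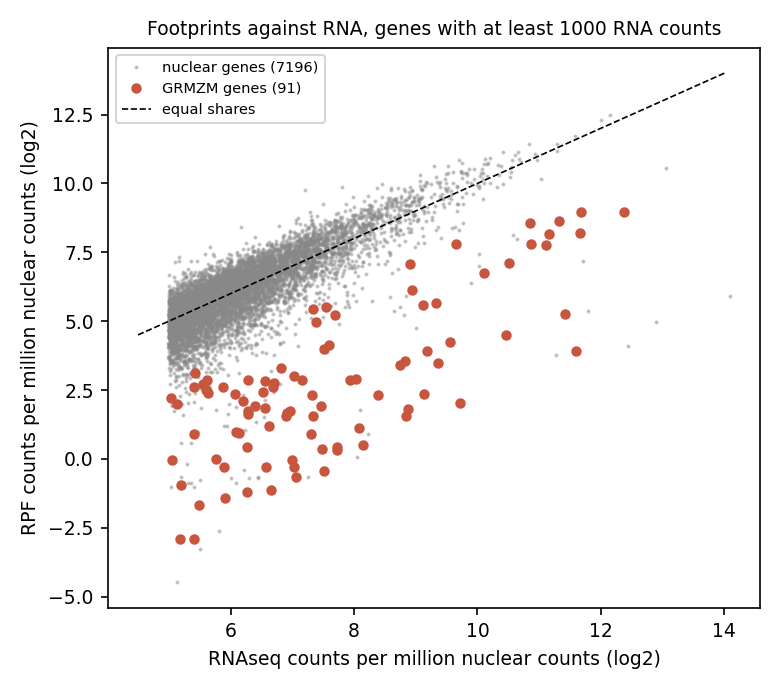
RPF counts against RNAseq counts, each summed over 6 libraries and scaled to the library type's nuclear counts (log2), for the 91 GRMZM genes (red) and 7196 nuclear genes (grey) with at least 1000 RNA counts. Points on the dashed line have equal shares of RPFs and RNA, and all 91 GRMZM genes lie below it.

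To ask whether the low RPF share came from a few genes, RPFs per RNA was computed gene by gene relative to all nuclear counts, so that 0 on the log2 scale is the ratio of the summed nuclear counts. Summed over libraries, all 174 GRMZM genes lay below 0, as did 68.8% of the nuclear genes with an RNA count. Among genes with at least 1000 RNA counts, the median of the 91 GRMZM genes was -5.00, with quartiles at -6.17 and -3.39 and extremes at -8.30 and -1.84. The 7196 nuclear genes had a median of 0.01, quartiles at -0.51 and 0.44, and a 5th percentile at -1.49. Even the highest GRMZM gene was thus below most nuclear genes: 219 nuclear genes (3.04%) had a lower ratio than it, and 29 (0.403%) a lower ratio than the median GRMZM gene.

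GRMZM genes also differed more among themselves than nuclear genes did. The SD of the log2 ratio over genes was 1.81 for GRMZM genes and 0.882 for nuclear genes. Of the 91 GRMZM genes, 88 lay below -2, 56 below -4 and 26 below -6. Of the 7196 nuclear genes, 177 (2.46%), 42 (0.584%) and 23 (0.320%) did. Ratios of genes with few RPFs carry more counting error, and its part in the wider spread was not tested. The ratio showed no order by RNA count: the median was -4.47 for the 30 genes with the most RNA counts, -5.25 for the middle 30 and -4.51 for the 31 with the fewest.

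**Figure D3:**
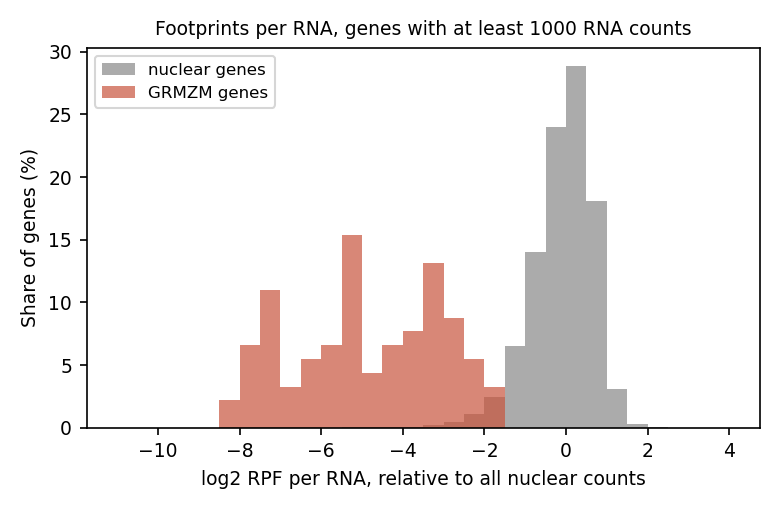
Distribution of log2 RPFs per RNA relative to all nuclear counts, as the share of genes (%) in each bin, for the 91 GRMZM genes (red) and 7196 nuclear genes (grey) with at least 1000 RNA counts. Nuclear genes gather around 0 and GRMZM genes spread from -8.30 to -1.84.

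The order of the GRMZM genes by ratio was much the same in all lysates. For the 43 genes with at least 10 counts in all 12 libraries, the correlation over genes of the log2 ratio between any pair of lysates was 0.829 to 0.984, a description over genes of shared libraries. The SD of a gene over the 6 lysates had a median of 0.52, and the SD between the genes' means was 1.61. For nuclear genes with such counts these values were 0.33 and 0.72. All 43 were below 0 in all 6 lysates, where 27.1% of all genes with such counts were.

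The level of RPFs per RNA was tested with edgeR's quasi-likelihood test over all 12 libraries, scaled to the summed nuclear counts, with the lysate as a term. Of the 174 GRMZM genes, 76 passed the filter on low counts in both library types, and 76 of 76 were lower than the nuclear total at an adjusted p under 0.05. Over all genes tested, 33.9% were lower and 21.1% higher. The log2 values ran from -7.48 to -1.74 with a median of -4.21, and the median nuclear gene was at -0.17. The filter needs RPF counts, so the genes left out include those with the fewest footprints.

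The lowest of the 76 were GRMZM5G889299 and GRMZM5G836544. GRMZM5G889299 had 692 and 1106 RNA counts before TM, 2386 and 707 after 6 hr, and 2134 and 1888 after 12 hr, but 5 to 10 RPFs in a library (log2 -7.48 ± 0.21 SE, edgeR quasi-likelihood test, adjusted p = 5.82e-16). GRMZM5G836544 had 1851 and 3168, 7755 and 2664, and 5902 and 4933 RNA counts, and 14 to 33 RPFs in a library (-7.46 ± 0.25 SE, adjusted p = 4.31e-15). GRMZM5G807592 was close to both at -7.37 ± 0.31 SE (edgeR, adjusted p = 1.76e-13), with differences smaller than the standard errors. Among the best counted genes GRMZM5G862955 was at -3.26 ± 0.12 SE, GRMZM5G884538 at -3.30 ± 0.12 SE, GRMZM5G884912 at -2.64 ± 0.11 SE, GRMZM5G884707 at -2.60 ± 0.09 SE and GRMZM5G816772 at -2.13 ± 0.12 SE. The pairs GRMZM5G862955 with GRMZM5G884538, and GRMZM5G884912 with GRMZM5G884707, lay within their standard errors, while GRMZM5G816772 was higher than each of these by more than both standard errors together.

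The GRMZM genes of low and of higher ratio were then followed over the lysates. The 91 genes with at least 1000 RNA counts were split at their median ratio in the 0 hr lysates, which makes the 0 hr values a description of the choice. In the lower set of 45 genes, the median log2 ratio was -5.33 and -5.65 before TM, -5.33 and -6.68 after 6 hr, and -5.65 and -7.99 after 12 hr. In the upper set of 46 genes it was -2.94 and -3.27 before TM, -3.03 and -3.42 after 6 hr, and -3.34 and -3.84 after 12 hr. Both sets were lowest in replicate 2 at 12 hr, the lysate with the deepest ribo-seq library. Medians of genes with few RPFs move with the pseudocount. With counts summed over each set, the lower set ran from -7.06 to -5.39 over lysates and the upper set from -3.43 to -2.46. By these sums both sets were again lowest in 12 hr replicate 2, and were highest in 6 hr replicate 1.

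For comparison, the 28 nuclear genes below the same split value had medians of -6.57 and -6.13 before TM, -5.56 and -7.32 after 6 hr, and -6.07 and -7.95 after 12 hr. At 0 hr, where both sets were chosen, they were lower than the lower GRMZM set. In replicate 1 their medians were higher after 0 hr, and those of that set were not. By summed counts, both were higher in replicate 1 after 0 hr. The nuclear genes then had -7.66 at 0 hr, -6.17 at 6 hr and -6.74 at 12 hr. The lower GRMZM set had -5.70, -5.39 and -5.66. The nuclear genes were picked from far more genes by low 0 hr ratios. Such a choice alone can give a rise after 0 hr, and its part was not tested. In 12 hr replicate 2 the medians of both were close, but their summed counts gave -8.98 for these nuclear genes and -7.06 for the GRMZM set. The 367 nuclear genes in the range of the upper set stayed between -2.03 and -1.80 in all 6 lysates. The lower set of GRMZM genes had 634 to 1943 RPFs in a library and the upper set 9441 to 44953. As the split was made on RPFs per RNA, this is in part a description of the choice. The upper set also had more RNA counts in every lysate, with 67441 to 294765 in a library against 32872 to 150935.

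**Figure D4:**
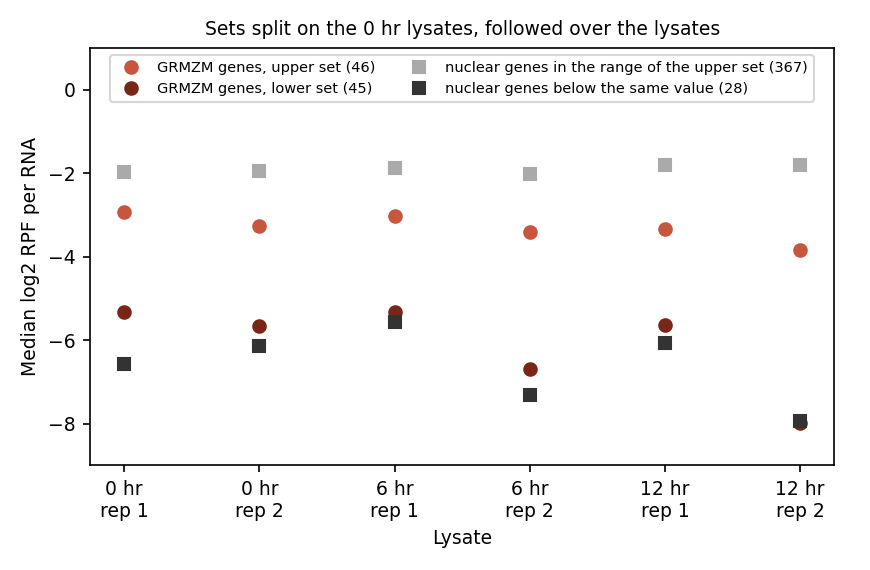
Median log2 RPFs per RNA relative to all nuclear counts in each lysate, for GRMZM genes split on the 0 hr lysates (circles, 46 upper and 45 lower) and nuclear genes with 0 hr ratios in the same ranges (squares, 367 and 28). The lower GRMZM set and the 28 nuclear genes have their lowest medians, -7.99 and -7.95, in the 12 hr replicate 2 lysate, and the 367 nuclear genes lie between -2.03 and -1.80 throughout.

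Replicates of a time point differed in how much they held of the GRMZM genes as a group. In ribo-seq, each replicate 1 share was above each replicate 2 share. Relative to nuclear counts, 61 of 72 genes with enough counts were higher in replicate 1 at 0 hr, 49 of 63 at 6 hr and 45 of 75 at 12 hr, where 52.1%, 48.3% and 46.9% of nuclear genes were. In RNAseq, 112 of 145 genes were higher in replicate 1 at 0 hr, 124 of 160 at 6 hr and 37 of 166 at 12 hr, so the direction at 12 hr was the opposite, where 50.4%, 48.9% and 47.0% of nuclear genes were higher in replicate 1. Such shifts were shared by most GRMZM genes of a library.

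The share of GRMZM genes in RNA and in RPFs was next compared between time points. With 2 libraries against 2, no such test can reach 0.05 (the smallest exact p is 0.333), so these values neither show nor exclude a change. Relative to nuclear counts, the RNA share at 12 hr was 0.32 above 0 hr on the log2 scale (exact two-sided permutation test, p = 0.667, with overlapping replicates), and the change was -0.04 within replicate 1 and 0.67 within replicate 2. At 6 hr it differed from 0 hr by -0.01 (exact p = 1). Both 12 hr libraries lay above both 6 hr libraries, with a difference of means of 0.33 or 1.25-fold (exact two-sided permutation test, p = 0.333). The change was 0.11 within replicate 1 and 0.55 within replicate 2. For RPFs the differences were -0.05 for 12 against 0 hr (exact p = 1), -0.09 for 6 against 0 hr (exact p = 0.667) and 0.04 for 12 against 6 hr (exact p = 1), all far smaller than the SD between replicates of 0.52 to 0.67.

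Gene by gene, no GRMZM gene passed edgeR's quasi-likelihood test for a change in RNA with actin scaling. Of 166 tested, 0 were called at 12 against 0 hr, where 0.278% of all genes were called higher and 0.0126% lower. The median log2 change was 0.80 for GRMZM genes and 0.50 for nuclear genes. Of the 166, 156 were above 0 and 6.02% below, against 16.3% of all genes below 0 with this scaling. An unadjusted p under 0.05 was reached by 66 (39.8%), against 15.3% of all genes. GRMZM genes of a library shift together, so such shares of genes, here and below, are not counts of independent results. The lowest adjusted p was 0.116. With TMM scaling, which brings the median nuclear gene to -0.00, the GRMZM median was 0.34 and 131 of 166 lay above 0. The 0 hr libraries decided this count: without 0 hr replicate 1, 93 of 169 GRMZM genes were called higher (12.9% of all genes), and without 0 hr replicate 2, 1 of 169 (0.595% of all genes).

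At 6 against 0 hr, 0 of 166 GRMZM genes were called in RNA (0.0885% of all genes higher, 0.00422% lower), with 3 (1.81%) at an unadjusted p under 0.05, against 4.27% of all genes, and a median of -0.11, against 0.07 for nuclear genes. At 12 against 6 hr, a comparison added after the values were seen, 0 of 166 were called, as of all genes (0.0%), although 164 of 166 lay above 0 and 77 (46.4%) had an unadjusted p under 0.05, against 4.92% of all genes. The median change there was 0.88 for GRMZM genes and 0.44 for nuclear genes. A shift of a library shared by its GRMZM genes would enter all of these values together. The largest fitted changes were those of genes with few counts, so they are given as a range only: -0.47 to 6.88 at 12 against 0 hr.

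For RPFs, 0 of 76 GRMZM genes were called by edgeR at 12 against 0 hr (0.137% of all genes higher, 0.142% lower) and 0 of 76 at 6 against 0 hr (0.0637% higher, 0.206% lower), with 5 (6.58%) and 6 (7.89%) at an unadjusted p under 0.05, against 2.68% and 3.63% of all genes. The median change was -0.21 at 12 hr, against -0.01 for nuclear genes, and -0.62 at 6 hr, against -0.29. At 6 hr 68 of 76 (89.5%) lay below 0, against 78.0% of all genes, or 55 of 76 with TMM scaling, with a median of -0.19. The lowest adjusted p at 6 hr was 0.0902, and without 0 hr replicate 2, 11 of 76 were called lower (3.24% of all genes). At 12 against 6 hr, 0 of 76 were called (0.0441% of all genes higher, 0.0049% lower), with 1 (1.32%) at an unadjusted p under 0.05, against 2.07% of all genes. The medians were 0.31 for GRMZM genes and 0.29 for nuclear genes. DESeq2 with its own size factors called 0 GRMZM genes in RNA or RPFs at 6 or 12 against 0 hr, and of all genes 1.04% in RNA and 0.485% in RPFs at 12 hr, and 0.586% and 0.309% at 6 hr.

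**Figure D5:**
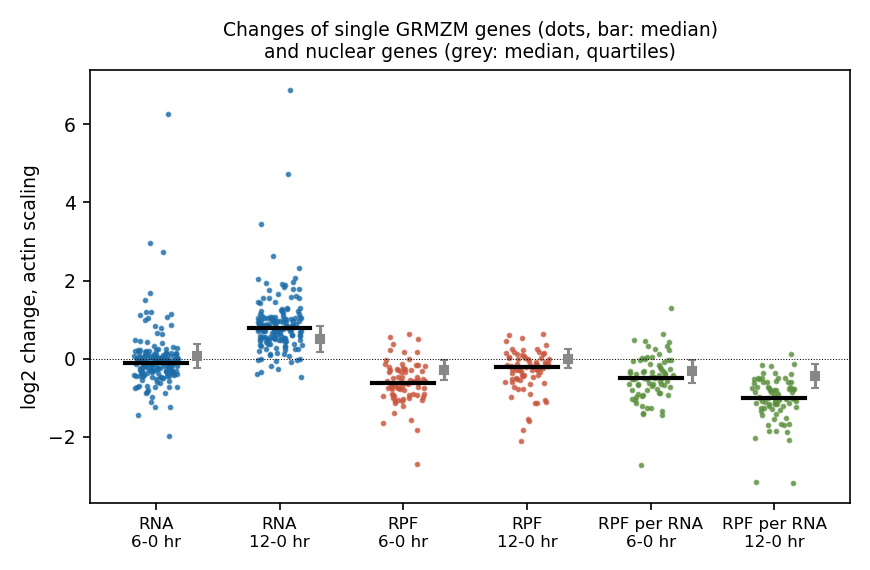
Fitted log2 change with actin scaling of each GRMZM gene tested (dots, with their median as a bar) in RNA (166 genes), RPFs (76 genes) and RPFs per RNA (76 genes), at 6 and 12 hr against 0 hr. Grey squares and whiskers are the median and quartiles of nuclear genes, and the GRMZM median lies farthest below the nuclear median in RPFs per RNA at 12 hr (-1.01 against -0.45).

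RPFs per RNA of the GRMZM genes was lower at 12 than at 0 hr in most genes, but no single gene passed the test. In the model of both library types, the term for a change of their ratio gave 0 of 76 calls with edgeR's quasi-likelihood test (0.0% of all genes in either direction) and 0 with DESeq2. The median log2 change was -1.01 for GRMZM genes and -0.45 for nuclear genes, a gap of -0.56. Of the 76, 75 lay below 0 (98.7%, against 81.5% of all genes) and 34 had an unadjusted p under 0.05 (44.7%, against 15.1%), with a lowest adjusted p of 0.143. With TMM scaling, which brings the median nuclear gene to 0.02, the GRMZM median was -0.54 and 67 of 76 lay below 0.

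The gap differed with the 12 hr lysate left out. It was -0.82 without 12 hr replicate 1, where 6 of 86 GRMZM genes were called lower (0.0408% of all genes), and -0.07 without 12 hr replicate 2. That lysate held both the highest RNA share of GRMZM genes and the deepest ribo-seq library, and their part in the gap was not tested. At 6 against 0 hr the median change was -0.49 for GRMZM genes and -0.32 for nuclear genes, with 0 of 76 called (0.0% of all genes) and 12 (15.8%) at an unadjusted p under 0.05, against 7.53% of all genes.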

How the data were processed

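Counts were the only unit used. The authors deposited raw read counts per gene, made, per their methods and processing notes (FastQC, cutadapt 1.16, Bowtie 1.2, SAMtools), by trimming, selecting read lengths (a narrower window for ribo-seq than for RNAseq), removing noncoding RNA reads, mapping to coding sequences of B73 RefGen_v4 with mismatches allowed, and summing transcripts to genes. A read that matched several places equally well was counted once, so near-identical genes may share counts. Organelle reads of lengths outside the windows, or edited beyond the allowed mismatches, would not be counted, and their number is not known. No duplicate removal or strand setting is given in the sources used here, so overlapping and antisense genes cannot be separated. Ribo-seq libraries were sequenced in additional lanes. No columns of per-sample values were left unused (0).

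Groups came from the sample titles. Changes were fitted with edgeR 4.0.16 in R 4.3.3 (glmQLFit, glmQLFTest, filterByExpr defaults), on 23721 genes for RNA, 20414 for RPFs and 20055 for both, scaled to actin as the study's methods state, or to summed nuclear counts for the level of RPFs per RNA. Adjusted p-values follow Benjamini and Hochberg over all genes tested, with a threshold of 0.05. In the RPF fit, p-values equal normal tail areas. Ratios of single genes used a pseudocount of 0.5, and replicate differences needed 20 counts in sum. Shares were compared by exact permutation tests over samples (scipy 1.17.1). Scripts were tested on simulated data. Alternatives were TMM, nuclear, actin and DESeq2 1.42.0 scaling, filters, blocks, and leaving out each replicate. RNA and RPF libraries of a lysate were paired by the study's methods. Over 10557 genes, the correlation of their replicate differences came to 0.450 before TM, 0.0181 after 6 hr and 0.505 after 12 hr. Named genes are the 4 with the largest share of GRMZM counts in each library type and, among genes past a test whose mean count is 50 or more, the 2 largest rises and falls. GRMZM5G845024 was added beside GRMZM5G807592 for comparison. Lists by gene product were not used for want of names. The genes and lists were chosen with earlier results of these data known.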

Additional observations from a re-analysis of the deposited data

How the results depend on the processing

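The lower RPF than RNA share kept its direction under every alternative run, with -3.50 to -3.29 when a lysate was left out (exact p = 0.0625, the smallest that 5 pairs allow). The share changes over time were not stable in sign: RNA at 6 against 0 hr was 0.028 with actin as the scale and -0.24 to 0.22 leaving out a replicate, RPFs at 6 against 0 hr were 0.083 as a median over genes and -0.58 to 0.40, RPFs at 12 against 0 hr -0.54 to 0.44, and RPFs at 12 against 6 hr (added after seeing the data) -0.22 as a median and -0.42 to 0.50. RNA stayed above 0 at 12 against 0 hr (0.09 to 0.55, and 0.79 with actin as the scale) and at 12 against 6 hr (0.20 to 0.45, and 0.76). Without a filter on low counts, 6 GRMZM genes were called in RNA at 12 against 0 hr (340 of all 34021 genes) and 9 in RPFs per RNA (31 of 34686), and the level test called 169 of 174 lower (28% of all genes), or 43 of 43 (32.5%) with at least 10 counts in every library. Leaving out a replicate gave 0 to 93 calls for RNA at 12 against 0 hr, 0 to 1 at 6 against 0 hr, 0 to 1 for RPFs at 12 against 0 hr, 0 to 11 at 6 against 0 hr, 0 to 6 for RPFs per RNA, and 76 to 86 for the level; a group left with 1 library is assumed to vary like the others. The cause of these moves was not tested. With the replicate number as a block, 0 GRMZM genes were called in RNA or RPFs. The mean share changes cannot differ with this block, as each time point holds both replicate numbers (RNA at 12 against 0 hr 0.32, exact p = 1). Correlations of replicate differences between time points were -0.26 to 0.0767 in RNA and -0.0202 to 0.346 in RPFs. Pairing by replicate number was thus not seen in RNA, and these values do not decide it for RPFs. TMM moved the median nuclear gene at 12 against 0 hr from 0.50 to -0.00 in RNA and from -0.45 to 0.02 in RPFs per RNA. The deepest ribo-seq library held RPFs of 102 GRMZM genes and the shallowest of 104.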

Other observations

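A small number of nuclear genes had RPFs per RNA as low as the GRMZM genes. Among nuclear genes with at least 1000 RNA counts, 42 (0.584%) lay below -4 on the log2 scale relative to all nuclear counts, and they held 4.35% of all nuclear RNA counts. Of these, 23 lay below -6 and 5 below -8, where 26 and 2 GRMZM genes did. Their identity is not given because the count table pairs identifiers with no names.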
